A study of Homo sapiens with 24 samples.

Results

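Cells build cholesterol and fatty acids from the same precursor, acetyl-CoA, and the 34 genes described here encode that machinery and its regulators. They were chosen by name and each had 1 row in the expression table, so that 34 of 34 were found among the 25161 gene symbols measured. 5 are regulators or carriers (SREBF1, SREBF2, INSIG1, SCAP and STARD4), 17 form the sterol arm from HMGCS1 to DHCR7, and 12 form the fatty acid arm from ACLY to ACSL3. The germinal center type diffuse large B-cell lymphoma (DLBCL) line SU-DHL-4 and the Burkitt's lymphoma line DG-75 were each kept for 72 h in DMSO as control, in 1 µM Entospletinib (Ento), an inhibitor of the B-cell receptor kinase SYK, in 0.01 µM AZD5153 (AZD), a bivalent inhibitor of BET chromatin readers, or in both (Ento+AZD) at the same concentrations. Each of the 8 groups had 3 biological replicates, and RNA of each culture was hybridized to 1 Clariom D array, a human whole-transcriptome array. Each lymphoma type is represented by 1 line, so that a difference between the lines cannot be told apart from a difference between the diseases.

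SREBF1 and SREBF2 encode the SREBP transcription factors, which are held in the endoplasmic reticulum by SCAP and the INSIG proteins while sterols are plentiful and are cut free to enter the nucleus when sterols run short. SREBP-2 acts mainly on the sterol genes and SREBP-1c mainly on the fatty acid genes. In promoters of both kinds SREBPs bind beside NF-Y, which recognizes CCAAT, and Sp1, which recognizes GC boxes. INSIG1 and STARD4, which encode the retention protein and a cholesterol carrier, are themselves SREBP targets. Dividing cells need both products for the membranes of daughter cells.

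What the genes share in sequence is shown first. RefSeq (GRCh38.p14) held 44 promoters of 31 of the 34 genes, and the 250 bases before each transcription start were searched on both strands for 4 motifs, none of which contains another. CCAAT was found in 15 of 20 promoters of the sterol arm and 9 of 19 of the fatty acid arm, against 32.0% of all 35116 human promoters in that table. Some promoters of the same gene overlap and share a match. By gene, CCAAT was matched for 13 of 15 sterol genes and 7 of 11 fatty acid genes, against 10102 of all 27305 genes. The GC box GGGCGG was found in 36 of the 44 promoters, against 42.6% of all. The SREBP motif TCACNCCAC matched the promoters of ACSL1 and SREBF2 only, 2 of 44 against 0.883% of all, and the E-box CACGTG matched 5 of 44 against 6.34%. A match describes the letters and is no evidence of a bound site. Promoters of 3 sterol genes whose arrays lay lower under Ento+AZD in DG-75 (HMGCS1, MVD and EBP) and of the fatty acid gene SCD are printed as examples with at least 2 CCAAT matches. They come from 13 promoters that overlap no annotated gene, their own included. Capitals mark CCAAT or its reverse complement ATTGG and GGGCGG or CCGCCC, and each sequence ends at the base before the start.
HMGCS1 (chr5:43313413-43313662, minus strand): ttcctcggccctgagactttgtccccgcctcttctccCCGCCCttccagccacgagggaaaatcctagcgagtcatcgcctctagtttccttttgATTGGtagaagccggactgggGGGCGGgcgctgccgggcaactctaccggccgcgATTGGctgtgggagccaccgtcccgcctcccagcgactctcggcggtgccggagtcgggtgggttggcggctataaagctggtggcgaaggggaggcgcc
MVD (chr16:88663092-88663341, minus strand): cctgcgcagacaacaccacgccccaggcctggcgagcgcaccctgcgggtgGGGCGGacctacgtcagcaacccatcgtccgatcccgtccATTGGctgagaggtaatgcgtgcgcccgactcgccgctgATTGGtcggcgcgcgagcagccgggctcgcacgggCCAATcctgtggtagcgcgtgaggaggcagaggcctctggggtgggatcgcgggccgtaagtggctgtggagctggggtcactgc
EBP (chrX:48521558-48521807, plus strand): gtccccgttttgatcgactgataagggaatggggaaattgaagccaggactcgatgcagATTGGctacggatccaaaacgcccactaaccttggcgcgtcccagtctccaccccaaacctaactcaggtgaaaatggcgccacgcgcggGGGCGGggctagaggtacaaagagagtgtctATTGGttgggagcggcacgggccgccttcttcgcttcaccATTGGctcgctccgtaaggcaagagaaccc
SCD (chr10:100346983-100347232, plus strand): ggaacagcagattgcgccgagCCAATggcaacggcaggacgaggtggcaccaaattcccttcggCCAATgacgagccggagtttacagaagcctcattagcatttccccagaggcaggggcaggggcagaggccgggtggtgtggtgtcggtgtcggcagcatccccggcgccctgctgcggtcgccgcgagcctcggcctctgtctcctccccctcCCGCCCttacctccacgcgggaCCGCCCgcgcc
These hold 2, 3, 3 and 2 CCAAT matches, respectively. Of the other genes with lower arrays under Ento+AZD in DG-75 and such a promoter, HSD17B7 and ACSL3 had 1 match each and SREBF1 had 0, and a second promoter of HMGCS1 had 0. Among unprinted genes with such a promoter whose arrays overlapped with DMSO there, NSDHL had 5 matches, MSMO1 4 and ELOVL5 2. LSS and SC5D had 1 each and ELOVL7 had 0. No CCAAT was matched in the windows of PMVK, ELOVL6 or FADS2, and 1 was matched in that of TM7SF2.

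Expression is given as the log2 value of the authors' robust multi-array average (RMA) normalization, so that a difference of 1 is a doubling. Arrays of 1 group correlated with Pearson's r of 0.981 to 0.992 over all rows, and no arrays held identical values. The median of an array ranged from 4.89 to 5.14. The mean over 8 B-cell markers, among them CD79A and CD22, was 9.57 to 10.2 per array for SU-DHL-4 and 8.21 to 9.06 for DG-75. The mean over 6 T-cell markers stayed between 3.0 and 3.40 in all arrays, that over 6 myeloid markers between 4.26 and 4.69 and that over 6 hepatocyte and adipocyte markers between 2.73 and 3.26. The arrays measure bulk RNA, in which fewer cells of a kind and less RNA per cell cannot be told apart.

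In the DMSO controls, 3 genes of the fatty acid arm differed by more than 2-fold between the lines. FADS1 and FADS2, neighboring genes for the desaturases that make polyunsaturated fatty acids, and ACSL1, an enzyme that activates long-chain fatty acids, were higher in SU-DHL-4. FADS1 read 6.72, 7.09 and 7.13 in the SU-DHL-4 DMSO arrays and 5.41, 4.55 and 4.92 in those of DG-75, a difference of 2.02 ± 0.26 (log2, SE, limma adjusted p = 4.05e-06). Of the DG-75 values, 4.55 lies within the range of the T-cell marker CD3E (3.37 to 4.72 over all arrays), so that the size of this difference is uncertain. FADS2 read 10.16, 10.27 and 10.23 against 8.61, 8.63 and 7.53, a difference of 1.97 ± 0.25 (adjusted p = 3.37e-06). ACSL1 read 7.50, 7.80 and 8.01 against 5.96, 5.60 and 6.11, a difference of 1.88 ± 0.21 (adjusted p = 2.99e-07). The arrays of the lines did not overlap for these 3, and over all members 17 of 34 had no overlap, against 33.3% of all rows. They were the only members called at an adjusted p under 0.05 with more than a 2-fold difference, 3 of 34 against 7.2% of all rows.

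Without the fold minimum, 17 of 34 members differed between the lines, against 17.6% of all rows. In the sterol arm 5 were higher in SU-DHL-4, among them FDFT1, the squalene synthase that commits the pathway to sterols (0.75 ± 0.16, adjusted p = 0.00124), and DHCR7, the reductase of the last step (0.91 ± 0.16, adjusted p = 0.000137). CYP51A1, the lanosterol demethylase, was the only sterol gene lower in SU-DHL-4 (-0.98 ± 0.18, adjusted p = 0.000341). In the fatty acid arm ACACA and FASN went the other way from the desaturases. ACACA, which makes malonyl-CoA, differed by -0.61 ± 0.14 (adjusted p = 0.00356) and FASN, the fatty acid synthase, by -0.79 ± 0.16 (adjusted p = 0.00117). ELOVL6 and ACSL3 were also lower in SU-DHL-4, by -0.88 ± 0.30 (adjusted p = 0.0438) and -0.85 ± 0.19 (adjusted p = 0.00189), and the ELOVL6 difference passed in 1 of 9 repeats with arrays left out. Of the regulators, INSIG1 was higher in SU-DHL-4 by 0.98 ± 0.23 (adjusted p = 0.00348) and SREBF2 showed -0.21 ± 0.15 (adjusted p = 0.41).

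**Figure D1:**
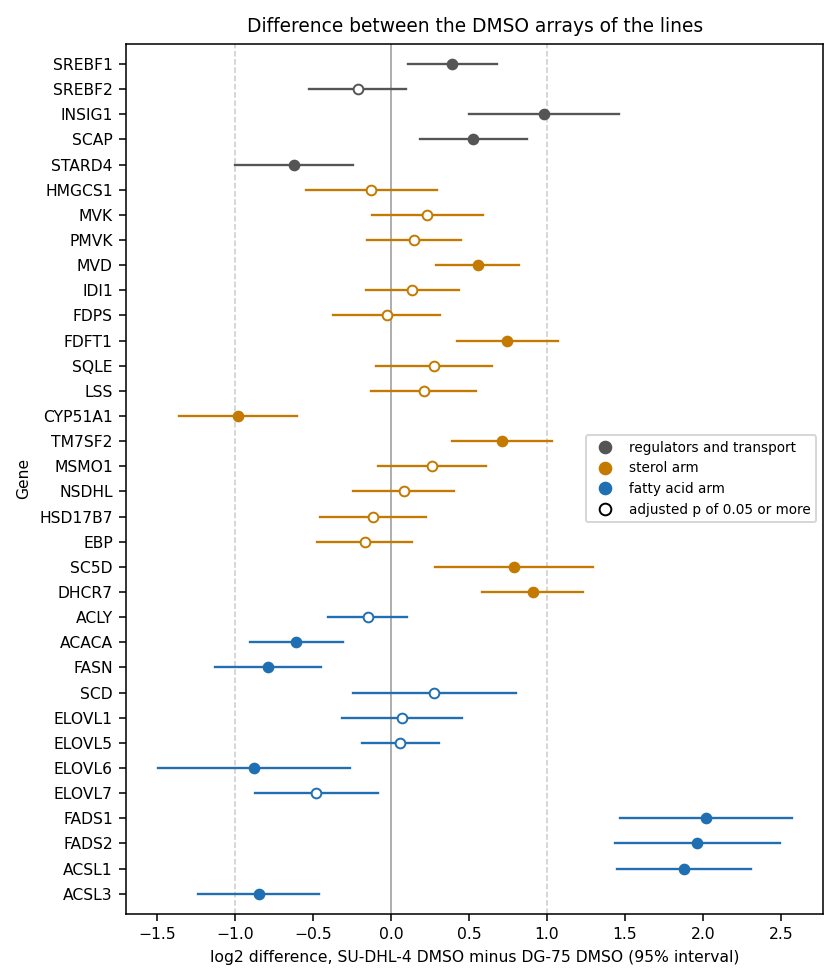
Difference between SU-DHL-4 DMSO and DG-75 DMSO for the 34 genes (x axis, log2; y axis, gene), with the 95% interval from limma as a bar, colored by arm and filled where the adjusted p is under 0.05. FADS1, FADS2 and ACSL1 lie past the dashed line at 1, and CYP51A1 lies at -0.98.

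In SU-DHL-4 a single member passed both thresholds under the combination. ELOVL6, the elongase that lengthens palmitate toward stearate, read 7.92, 8.0 and 7.94 in DMSO, 7.70, 6.48 and 7.54 under Ento, 7.59, 6.66 and 7.49 under AZD and 6.67, 5.28 and 6.32 under Ento+AZD. All arrays of each treated group lay below all DMSO arrays, and replicate 2 was the lowest array in each treated group. Under Ento+AZD the change was -1.86 ± 0.23 (log2, SE, limma adjusted p = 0.00478, 95% interval -2.37 to -1.35), a mean 3.64-fold decrease. Under Ento and under AZD alone it was -0.71 ± 0.23 in each case, with adjusted p of 0.461 and 0.274, so that neither was called. With arrays left out these changes ranged from -0.96 to -0.31 (nearest 0 without replicate 2) and from -0.95 to -0.33 (nearest 0 without DMSO replicate 2). Ento+AZD lay 1.15 below Ento (-1.15 ± 0.23, adjusted p = 0.0817) and 1.16 below AZD (-1.16 ± 0.23, adjusted p = 0.255) without passing the threshold, and limma called no member in either comparison (0.0821% and 0.0274% of all rows). At an unadjusted p under 0.05, 6 and 3 members passed there, against 9.67% and 7.03% of all rows. ELOVL6 under Ento+AZD was called in 8 of 9 repeats with 1 array or replicate number left out. The call was lost without replicate 3 (-1.98, adjusted p = 0.0721) and without the replicate number in the fit (adjusted p = 0.0512), and the change was smallest without replicate 2 (-1.44).

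ELOVL6 made up the 1 call among 34 members for the combination in SU-DHL-4, against 1.19% of all rows. No member was called by limma under Ento (0.0508% of all rows) or under AZD (0.18% of all rows). At an unadjusted p under 0.05, 2 members passed under Ento (8.59% of all rows), 4 under AZD (11.5%) and 9 under Ento+AZD (14% of all rows). SCD, the desaturase that makes monounsaturated fatty acids, read 10.30, 10.51 and 10.53 in DMSO and 10.09, 10.06 and 9.87 under Ento+AZD (-0.44 ± 0.14, adjusted p = 0.165). These arrays did not overlap, and the difference did not pass the test. FADS2 read 9.79, 9.85 and 9.54 under Ento+AZD, below its 3 DMSO arrays (-0.49 ± 0.15, adjusted p = 0.132). In all, the Ento+AZD and DMSO arrays did not overlap for 11 of 34 members, against 20.8% of all rows.

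Of the sterol genes of SU-DHL-4, FDPS, which makes farnesyl diphosphate, had the largest difference under Ento+AZD, with 9.90, 9.98 and 10.10 in DMSO and 9.59, 9.32 and 9.51 under Ento+AZD (-0.52 ± 0.15, adjusted p = 0.0918). TM7SF2, a sterol reductase that acts on the product of CYP51A1, had the largest under AZD and lay higher. It read 8.69, 8.76 and 8.37 in DMSO, 9.02, 9.21 and 8.84 under AZD (0.41 ± 0.14, adjusted p = 0.263) and 9.02, 9.25 and 9.01 under Ento+AZD (0.48 ± 0.14, adjusted p = 0.0932). Neither gene passed the test, although the Ento+AZD arrays of both stood apart from DMSO. Under Ento the largest was SC5D, the sterol desaturase, with 8.04, 8.16 and 8.32 in DMSO and 7.86, 7.66 and 7.79 under Ento (-0.40 ± 0.22, adjusted p = 0.638). With arrays left out the SC5D difference ranged from -0.55 to -0.25.

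Among the regulators in SU-DHL-4, INSIG1 had the largest difference under Ento+AZD. It read 9.42, 9.53 and 9.59 in DMSO, 9.53, 9.18 and 9.11 under Ento (-0.24 ± 0.17) and 9.21, 9.33 and 8.90 under Ento+AZD (-0.37 ± 0.17, adjusted p = 0.346). SCAP, the escort protein of the SREBPs, read 7.33, 7.76 and 7.41 in DMSO and 7.77, 7.84 and 7.77 under AZD (0.29 ± 0.15, adjusted p = 0.492), and no array of AZD lay below one of DMSO. SREBF1 and SREBF2 differed from DMSO by between -0.30 and 0.10 in the 3 treatments, and none of these passed the test.

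**Figure D2:**
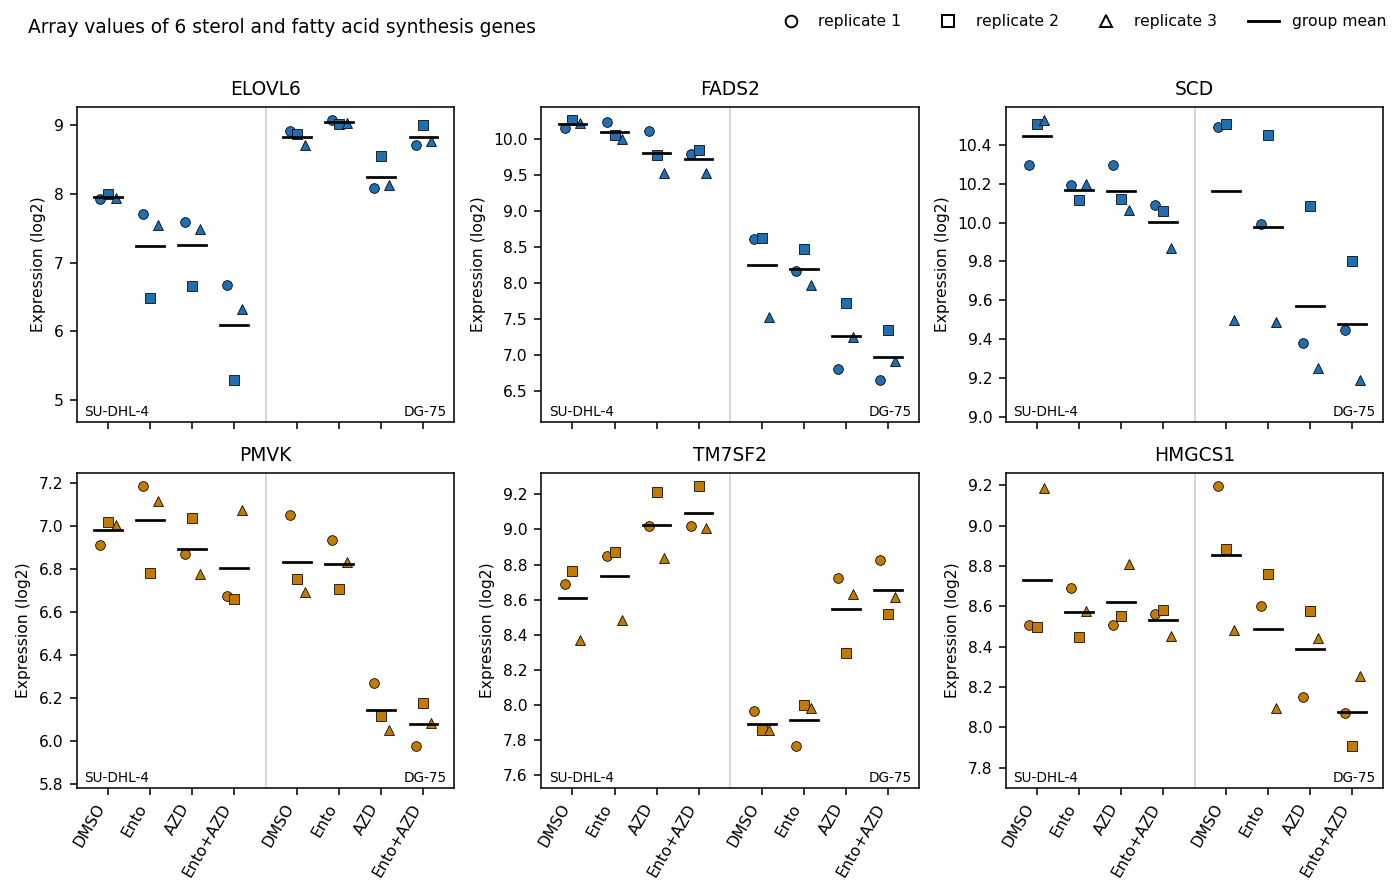
Log2 expression (y axis) of 6 genes on each of the 24 arrays (x axis, treatment, with SU-DHL-4 left and DG-75 right of the line), with replicate numbers as symbols and group means as bars. ELOVL6 under Ento+AZD in SU-DHL-4 reaches 5.28 at its lowest, whereas in DG-75 it stays between 8.71 and 9.0.

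In DG-75 another fatty acid gene, FADS2, passed both thresholds under Ento+AZD, and ELOVL6 did not. FADS2 read 8.61, 8.63 and 7.53 in DMSO, 8.16, 8.48 and 7.97 under Ento, 6.81, 7.72 and 7.25 under AZD and 6.65, 7.35 and 6.92 under Ento+AZD. DMSO replicate 3 stood about 1 log2 unit below the other DMSO arrays and inside the AZD range, and the Ento+AZD arrays lay below all DMSO arrays. The change under Ento+AZD was -1.29 ± 0.24 (limma adjusted p = 0.0244, 95% interval -1.81 to -0.76), a mean 2.44-fold decrease. Under AZD alone it was -0.99 ± 0.24 (adjusted p = 0.0965), with a range of -1.35 (without replicate 3) to -0.59 (without replicate 1), and under Ento it was -0.05 ± 0.24. Ento+AZD was lower than Ento by -1.23 ± 0.24 (adjusted p = 0.031), and its difference from AZD, -0.29 ± 0.24, had a 95% interval of -0.82 to 0.23. FADS2 was the only member called in DG-75, 1 of 34 against 0.833% of all rows under Ento+AZD and 0.657% in the comparison with Ento. The call against DMSO held in 2 of 9 repeats with arrays left out, those without DMSO replicate 3 and without Ento+AZD replicate 3, and the change ranged from -1.62 to -0.95. In the other repeats it was lost: without DMSO replicate 1 (adjusted p = 0.169) or 2 (0.0698), Ento+AZD replicate 1 (0.159) or 2 (0.0739), or replicate number 1 (0.352), 2 (0.161) or 3 (0.0539). Against Ento the call held in 1 of 9 repeats, that without Ento replicate 3 (adjusted p = 0.047), and it was lost with array medians subtracted (0.0548) and without the replicate number in the fit (0.0543).

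A pair of sterol genes passed the adjusted p without reaching a 2-fold difference, in opposite directions. PMVK, the kinase of the second phosphorylation of mevalonate, read 7.05, 6.75 and 6.69 in DMSO, 6.94, 6.71 and 6.84 under Ento, 6.27, 6.11 and 6.05 under AZD and 5.98, 6.18 and 6.09 under Ento+AZD. Every AZD and Ento+AZD array lay below every DMSO and Ento array. The change under Ento+AZD was -0.75 ± 0.14 (adjusted p = 0.0244), or 1.69-fold lower, and under AZD -0.69 ± 0.14 (adjusted p = 0.0679). TM7SF2 read 7.97, 7.86 and 7.86 in DMSO, 7.77, 8.0 and 7.98 under Ento, 8.72, 8.29 and 8.63 under AZD and 8.83, 8.52 and 8.62 under Ento+AZD. Here every array with AZD lay above every array without it. The change under Ento+AZD was 0.76 ± 0.15 (adjusted p = 0.0283), or 1.69-fold higher, and under AZD 0.66 ± 0.15 (adjusted p = 0.083). Against Ento, Ento+AZD differed by -0.75 ± 0.14 for PMVK (adjusted p = 0.0278) and 0.73 ± 0.15 for TM7SF2 (adjusted p = 0.0359), which with FADS2 makes 3 of 34 members against 1.66% of all rows at any fold. Against Ento, each passed in 1 of 9 repeats with arrays left out, that without Ento replicate 3, and PMVK was lost by quantile normalization (0.0646) and with array medians subtracted (0.0528). With no fold minimum, 3 of 34 members passed under Ento+AZD against 2.39% of all rows. Against DMSO, PMVK passed in 1 of 9 such repeats, that without Ento+AZD replicate 3, and TM7SF2 in 0 of 9, with changes of -0.84 to -0.59 and 0.69 to 0.81.

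HMGCS1, which makes HMG-CoA at the entry of the mevalonate pathway, had the largest difference of the sterol arm under Ento+AZD in DG-75. It read 9.20, 8.89 and 8.48 in DMSO, 8.60, 8.76 and 8.10 under Ento, 8.15, 8.57 and 8.44 under AZD and 8.07, 7.91 and 8.26 under Ento+AZD (-0.78 ± 0.21, adjusted p = 0.0904). It did not pass the test, although the Ento+AZD arrays lay below all DMSO arrays. Other sterol genes with lower arrays apart from DMSO were HSD17B7 and MVD, whose values are given with the remaining members, MVK, the mevalonate kinase (-0.55 ± 0.15, adjusted p = 0.0841), FDPS (-0.58 ± 0.16, adjusted p = 0.0983), CYP51A1 (-0.55 ± 0.16, adjusted p = 0.106), EBP, the sterol isomerase (-0.53 ± 0.16, adjusted p = 0.118), and DHCR7 (-0.44 ± 0.16, adjusted p = 0.199). Under Ento+AZD 14 of 34 members had arrays that did not overlap with DMSO, against 18.8% of all rows (7 of 34 by quantile normalization and 8 of 34 with array medians subtracted), and under AZD 8 of 34, against 19.1%. These shares are those of the deposited values and were not computed for the other scalings. SCD lay in the fatty acid arm at 10.49, 10.51 and 9.50 in DMSO and 9.44, 9.80 and 9.19 under Ento+AZD (-0.69 ± 0.17, adjusted p = 0.0619). DMSO replicate 3 again fell inside the treated range.

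Ento alone left the genes of DG-75 near DMSO. No member was called by limma and none passed at an unadjusted p under 0.05, against 0.00391% and 2.81% of all rows. The largest difference of the sterol arm was that of HMGCS1 (-0.37 ± 0.21, 95% interval -0.84 to 0.10), with a range of -0.53 to -0.18 with arrays left out. In the fatty acid arm ELOVL7, an elongase of longer chains, read 3.67, 3.20 and 3.70 in DMSO and 3.25, 3.20 and 2.96 under Ento (-0.39 ± 0.19). These values lie in or near the range of the T-cell marker CD3D (2.75 to 3.69 over all arrays), so that no rank is given to its difference. SREBF1 read 7.79, 7.60 and 7.60 in DMSO and 7.94, 7.61 and 7.67 under Ento (0.08 ± 0.15), 7.30, 7.63 and 7.46 under AZD (-0.20 ± 0.15) and 7.28, 7.52 and 7.20 under Ento+AZD (-0.33 ± 0.15, adjusted p = 0.319). AZD alone gave no call (0.18% of all rows), with 12 of 34 members at an unadjusted p under 0.05 against 13.8% of all rows. INSIG1 read 8.70, 8.97 and 7.92 in DMSO and 8.14, 8.62 and 8.08 under AZD (-0.25 ± 0.15, adjusted p = 0.52), and its difference was -0.07 by quantile normalization and ranged from -0.45, without replicate 3, to -0.09, without replicate 1. ELOVL6 read 8.92, 8.86 and 8.71 in DMSO, 9.07, 9.02 and 9.03 under Ento, 8.08, 8.55 and 8.12 under AZD (-0.58 ± 0.14, adjusted p = 0.102) and 8.71, 9.0 and 8.77 under Ento+AZD (-0.01 ± 0.14). Its AZD arrays lay below those of the other groups, and Ento+AZD differed from AZD by 0.58 ± 0.14 (adjusted p = 0.953), the 1 member at an unadjusted p under 0.05 in a comparison in which limma called 0% of all rows (4.03% at that unadjusted p).

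None of the remaining members passed the test against DMSO. SQLE, the squalene epoxidase, gave 0.20 ± 0.17 for the combination on SU-DHL-4 and -0.41 ± 0.20 on DG-75. FDFT1 ranged from -0.29 to -0.06 over the 6 comparisons. IDI1, LSS and MSMO1, which act before, at and after the closing of the sterol ring, stayed between -0.26 and 0.21 in the 6 comparisons with DMSO, and NSDHL and HSD17B7, enzymes of the later demethylation steps, between -0.32 and 0.18. HSD17B7 read 7.44, 7.46 and 7.28 in DMSO and 7.27, 7.18 and 7.15 under Ento+AZD in DG-75 (-0.19 ± 0.17, adjusted p = 0.647). MVD, which makes isopentenyl diphosphate, lay at 6.98, 6.89 and 6.85 in DMSO and 6.82, 6.67 and 6.55 under Ento+AZD in DG-75 (-0.23 ± 0.13, adjusted p = 0.445). In the fatty acid arm ACLY, which supplies acetyl-CoA, ranged from -0.34 to 0.03, and ELOVL1 and ELOVL5 from -0.22 to 0.22. Under AZD, FASN differed from DMSO by 0.28 ± 0.16 in the SU-DHL-4 line and by -0.39 ± 0.14 in the DG-75 line, and ACACA by 0.22 ± 0.16 and -0.21 ± 0.13. The signs differed between the lines for both genes, and the difference between the lines did not pass for FASN (limma adjusted p = 0.532) or ACACA (limma adjusted p = 0.806). ELOVL7 ranged from -0.39 to 0.19, and the acyl-CoA synthetase genes ACSL1 and ACSL3 from -0.39 to 0.15 and from -0.46 to -0.04. FADS1, the neighbor of FADS2, gave -0.13 ± 0.31 under Ento+AZD in DG-75 and -0.47 ± 0.20 in SU-DHL-4. Of the regulators in DG-75, SREBF2 stayed between -0.12 and 0.05 and SCAP between -0.06 and 0.03, and STARD4 lay between -0.21 and 0.06 over both lines.

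**Figure D3:**
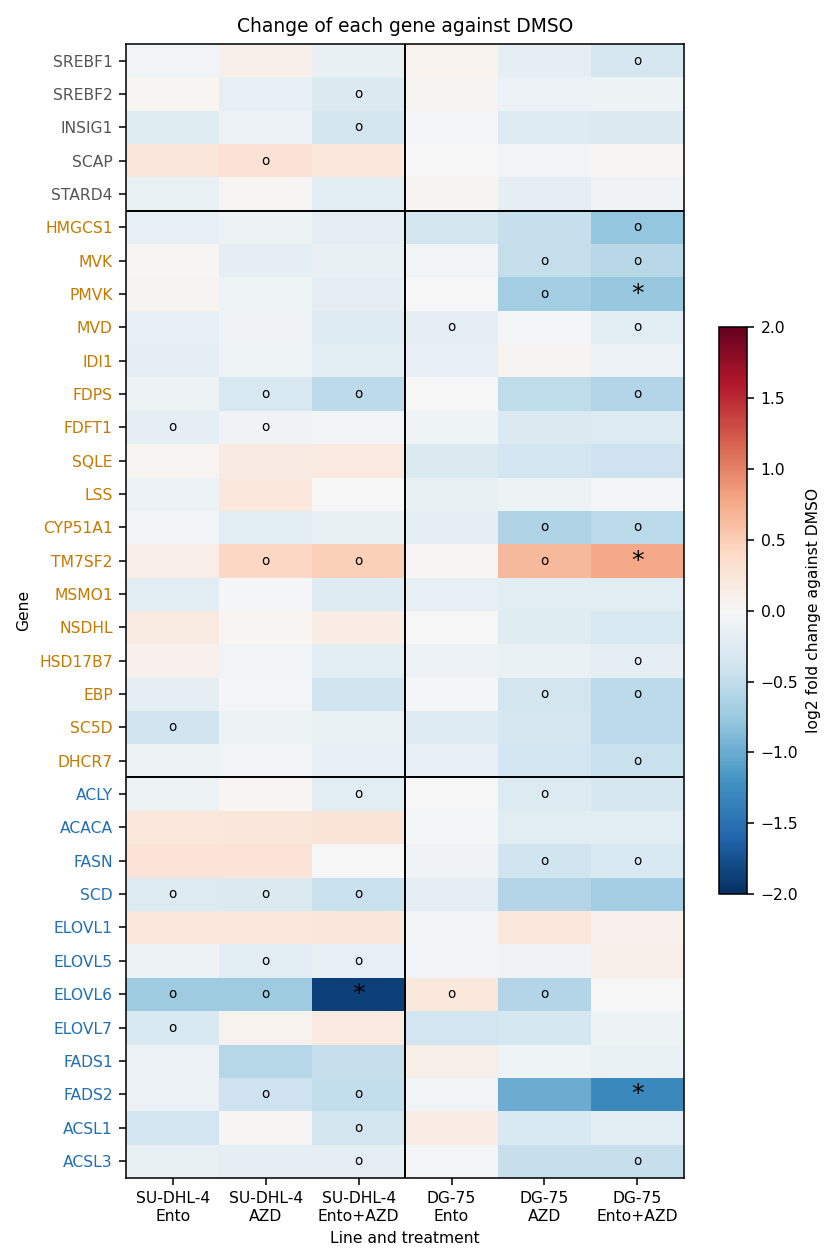
Log2 fold change against DMSO (color) of the 34 genes (y axis, colored by arm) for each line and treatment (x axis). Stars mark an adjusted p under 0.05 and circles mark groups that do not overlap without passing it. The 4 stars are ELOVL6 (-1.86) in SU-DHL-4 and PMVK (-0.75), TM7SF2 (0.76) and FADS2 (-1.29) in DG-75, all under Ento+AZD.

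The arms were compared by the median change of their members, with no test over the list. In DG-75 the sterol arm had a median of -0.41 under Ento+AZD, with 16 of 17 genes lower and only TM7SF2 higher (15 of 17 lower with array medians subtracted), and the fatty acid arm a median of -0.23 with 10 of 12 lower. The median of all rows in that comparison was -0.07, and 61.4% of all rows were lower. By quantile normalization these medians were -0.26 for the sterol arm and -0.12 for the fatty acid arm, and the latter was -0.14 with array medians subtracted. Under AZD both arms had a median of -0.34, with 15 of 17 sterol genes and 11 of 12 fatty acid genes lower, against -0.06 and 60.5% of all rows. With arrays left out these medians ranged from -0.46 to -0.18 and from -0.50 to -0.18, nearest 0 without replicate 1, and by quantile normalization the sterol median was -0.18. Under Ento 15 of 17 sterol genes were lower with a median of -0.15, against 51.1% of all rows lower, and the fatty acid arm had a median of -0.04. That sterol median ranged from -0.23, without DMSO replicate 3, to -0.05, without DMSO replicate 1, and 13 of 17 were lower with array medians subtracted. That of the fatty acid arm ranged from -0.09 to 0.06 and was above 0 without DMSO replicate 1 or without replicate number 1. These 3 comparisons share their DMSO arrays. The B-cell marker mean of DG-75 was 8.21 to 8.54 in DMSO, 8.62 to 8.77 under AZD and 8.64 to 9.06 under Ento+AZD, and its part in the differences of the arms was not tested.

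Under Ento+AZD the medians of SU-DHL-4 were -0.17 for the sterol arm, with 13 of 17 genes lower, and -0.20 for the fatty acid arm, with 8 of 12 lower, against a median of -0.08 and 64% of all rows lower. With the median of each array subtracted they became -0.04 and -0.07, and without replicate 3 the sterol median was -0.07. Under AZD they were -0.06 and -0.09 against -0.08 for all rows, and both turned to 0.05 and 0.03 after the median of each array was subtracted. Under Ento both arms had a median of -0.11 against -0.06 for all rows, which became 0.01 and 0.003 after that subtraction. With arrays left out the sterol median ranged from -0.20, without DMSO replicate 1, to -0.000945, without replicate 3, and the fatty acid median from -0.26, without replicate 1, to -0.03, without replicate 2. The array medians of the treated groups in SU-DHL-4 lay below DMSO by -0.12 under Ento, -0.12 under AZD and -0.13 under Ento+AZD, so that small decreases there depend on the scaling. With medians subtracted, 12 of 17 sterol genes of SU-DHL-4 were lower under Ento+AZD, compared with 15 of 17 of the DG-75 line.

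Sterol genes also differed in a shared direction between cultures of the same treatment. In DG-75 DMSO, replicate 3 was the lowest of the 3 arrays for 14 of 17 sterol genes, against 28.3% of all rows, and the mean of the arm was 8.66, 8.55 and 8.29 in replicates 1 to 3. The means under Ento+AZD were 8.19, 8.09 and 8.21, below all DMSO arrays, whereas those under AZD were 8.14, 8.32 and 8.25 and overlapped with DMSO replicate 3. Without replicate 3 the median change of the sterol arm under Ento+AZD was -0.56, and without replicate 2 it was -0.26. Over all repeats with arrays left out that median ranged from -0.56 to -0.24. In SU-DHL-4 DMSO, replicate 1 was the lowest array for 14 of 17 sterol genes and for 10 of 12 fatty acid genes, but also for 44.5% of all rows. The numbers mark cultures and have no order.

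**Figure D4:**
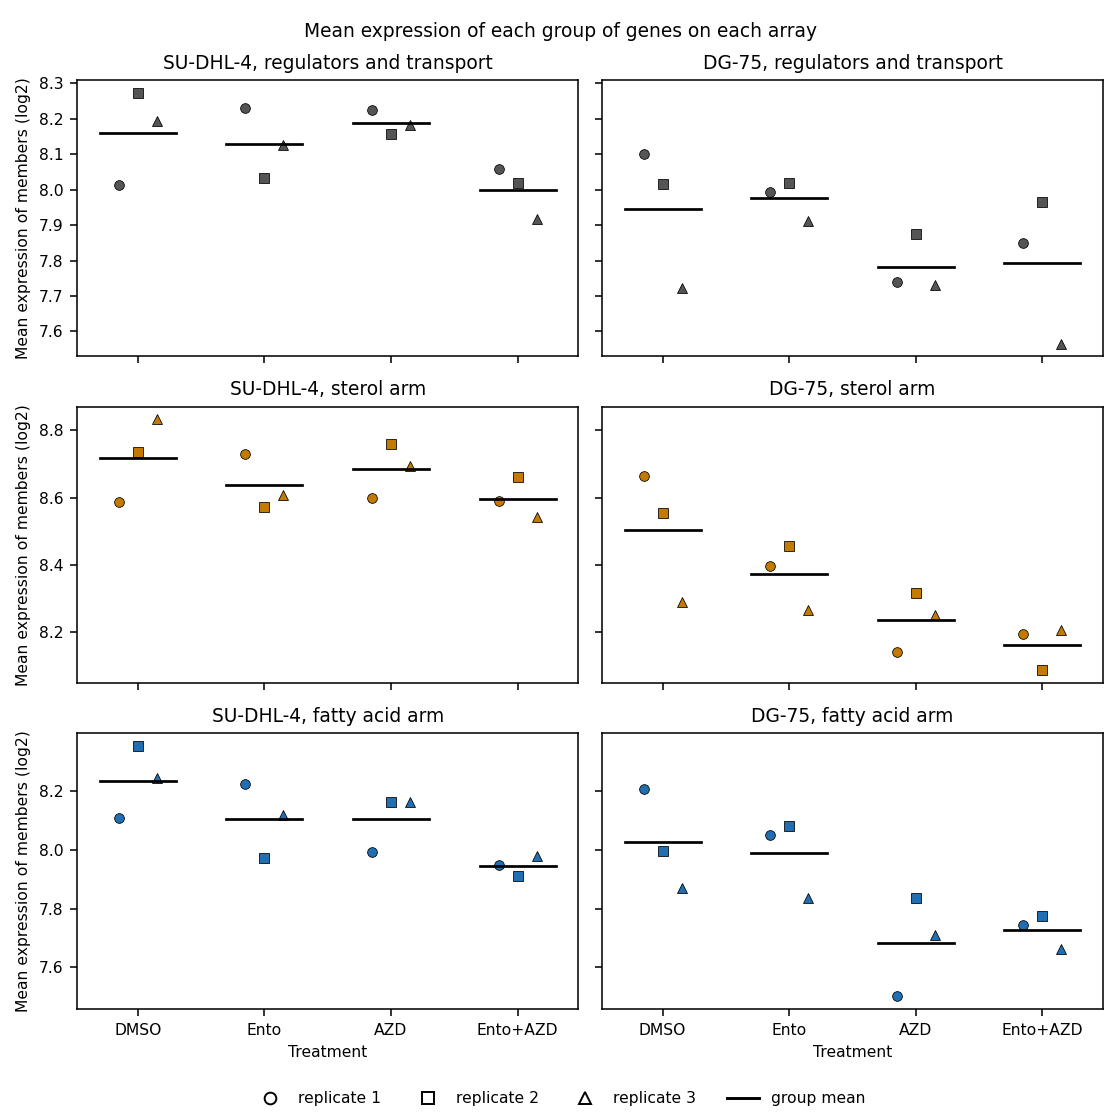
Mean log2 expression (y axis) of the regulators, the sterol arm and the fatty acid arm on each array (rows of panels), by treatment (x axis), in SU-DHL-4 (left) and DG-75 (right), with replicate numbers as symbols and group means as bars. In DG-75 the sterol arm lies at 8.66, 8.55 and 8.29 in DMSO and at 8.19, 8.09 and 8.21 under Ento+AZD.

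The response of the lines was compared in 1 fit of all 24 arrays, with the change of DG-75 subtracted from that of SU-DHL-4. ELOVL6 was the only member that differed, by -1.86 ± 0.29 under Ento+AZD (limma adjusted p = 0.0168, 95% interval -2.46 to -1.25), 1 of 34 against 0.0352% of all rows. In SU-DHL-4 all 3 Ento+AZD arrays lay below all DMSO arrays, and in DG-75 these groups overlapped. This call was lost without the replicate numbers in the fit (adjusted p = 0.238) and held in 5 of 15 repeats with arrays left out, over a range of -2.26 to -1.36. With arrays left out it was lost without any 1 of the DG-75 DMSO replicates (adjusted p = 0.0688, 0.091 and 0.0716 without replicates 1, 2 and 3), without DG-75 Ento+AZD replicate 1 (0.0592) or 2 (0.0527), without SU-DHL-4 Ento+AZD replicate 2 (0.0734) or 3 (0.0509), and without replicate number 1 (0.244), 2 (0.119) or 3 (0.359) in both lines. The FADS2 change was 0.79 ± 0.29 higher in SU-DHL-4 than that of DG-75 (adjusted p = 0.586) and that of PMVK 0.58 ± 0.21 (adjusted p = 0.576), so that the lines were not shown to differ in either. No member differed under Ento (0.00782% of all rows) or under AZD, where no row was called. At an unadjusted p under 0.05, 1 and 3 members passed, respectively, against 4.43% and 6.16% of all rows. Under Ento+AZD 24 of 34 members were lower in both lines, as were 43.8% of all rows. The change was the lower one in DG-75 for 16 of 34 members under Ento, against 40.6% of all rows, for 27 under AZD, against 48.5%, and for 22 under Ento+AZD, against 47.9%.

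Further genes of the pathways followed with few calls. Of 22 other sterol and SREBP genes none passed both thresholds against DMSO in any treatment, and of 22 other fatty acid genes only THRSP did, a regulator of fatty acid synthesis (for Ento+AZD, 1.19% of all rows were called in SU-DHL-4, 0.833% in DG-75). In DG-75 it read 5.57, 5.68 and 5.85 in DMSO, 6.43, 6.62 and 6.31 under Ento, 5.81, 6.60 and 6.49 under AZD and 7.29, 7.04 and 7.20 under Ento+AZD, where it rose by 1.48 ± 0.19 (adjusted p = 0.0148). The Ento+AZD arrays lay above all others of the line, and in SU-DHL-4 THRSP read 3.10 to 4.13 over all arrays. Without the fold minimum 3 more genes passed, against 2.36% of all rows under Ento+AZD in SU-DHL-4 and 2.39% for DG-75, and they are named after their values were seen. ACAT2, the acetyl-CoA thiolase before HMGCS1, changed by -0.93 ± 0.16 (adjusted p = 0.0214) and TMEM97, a sterol-regulated membrane protein, by -0.74 ± 0.16 (adjusted p = 0.0357) under Ento+AZD in DG-75. ACACB, the mitochondrial acetyl-CoA carboxylase, changed by -0.85 ± 0.17 under Ento+AZD in SU-DHL-4 (adjusted p = 0.0205), where its arrays read 4.04, 3.72 and 4.38, within the range of CD3E.

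Between the DMSO controls of the lines, 9 of these 44 further genes were called, against 7.2% of all rows. At any fold, 8 of the 22 sterol and SREBP genes and 5 of the 22 fatty acid genes passed, against 17.6% of all rows. The cholesterol exporters ABCG1 and ABCA1 were higher in SU-DHL-4 by 3.34 ± 0.28 (adjusted p = 4.16e-09) and 1.17 ± 0.36 (adjusted p = 0.0256), and MYLIP, which degrades lipoprotein receptors, by 2.61 ± 0.25 (adjusted p = 3.7e-08). All 3 are known targets of the liver X receptors, whose part in these differences was not tested. The receptor genes NR1H2 and NR1H3 averaged 7.33 and 6.73 over the SU-DHL-4 arrays and 7.47 and 6.75 over those of DG-75. SOAT1, which esterifies cholesterol, was lower in SU-DHL-4 by -1.37 ± 0.15 (adjusted p = 3.82e-07) and GGPS1, which makes geranylgeranyl diphosphate, by -1.28 ± 0.26 (adjusted p = 0.00085). In the fatty acid group FADS3, the neighbor of FADS1 and FADS2, was higher by 3.06 ± 0.21 (adjusted p = 1.6e-10). MID1IP1 and ACACB were lower by -2.75 ± 0.30 (adjusted p = 2.54e-07) and -2.01 ± 0.23 (adjusted p = 5.15e-07), and THRSP, which shares its fold with MID1IP1, by -1.98 ± 0.18 (adjusted p = 1.01e-08). ABCG1 in DG-75 (3.35, 3.41 and 4.19 in DMSO) and THRSP in SU-DHL-4 (3.78, 3.93 and 3.46) lay at or near the level of CD3E, whose lowest array was at 3.37, so that the sizes of both differences are uncertain. MID1IP1 in SU-DHL-4 (4.46, 5.18 and 5.02 in DMSO) had 1 array in that range and ACACB (4.80, 4.83 and 5.06) lay just above it, so that the sizes of their differences are uncertain too.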

How the data were processed

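Expression of SU-DHL-4 and DG-75 cells was measured on 24 Clariom D arrays, 3 for each of 8 groups. Per the authors' methods, the deposited log2 values were RMA normalized with limma and mapped to genes with affycoretools and clariomhumantranscriptcluster.db. The build and versions are not given in the sources used here. The table held 25575 rows and 25161 symbols and was used as deposited, with no filter on low values. No detection value was used, so low values cannot be called expressed or not expressed, and the number of arrays limits the precision. Every per-sample column was assigned by its name.

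Groups and replicate numbers came from the labels. The arrays of a line were fitted together with limma 3.58.1 in R 4.3.3 (lmFit, contrasts.fit, eBayes), with treatment and replicate number 1 to 3 as a batch term, since the methods fit a batch that they do not define. P-values were adjusted after Benjamini-Hochberg over all rows, and calls needed both an adjusted p below 0.05 and a change of more than 1 on the log2 scale. The difference between the responses came from a fit of the 24 arrays with a term for replicate number in each line, and the DMSO groups were compared without a batch term. Scripts were tested on simulated data. All 34 members are named, with array values for those called and for the largest change of each arm in each comparison with DMSO, and further pathway genes where called. Members and lists were chosen with earlier results of these data known, so no list has a p-value of its own. Alternatives were the batch term, 1 fit of both lines, the scaling of arrays, a filter on low rows, the variance prior, the fold minimum and arrays left out. Promoters came from RefSeq (GRCh38.p14).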

Additional observations from a re-analysis of the deposited data

Results flagged for a closer look

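ELOVL6 differed between the lines in its response to Ento+AZD by -1.86 ± 0.29 (log2, DG-75 subtracted from SU-DHL-4, limma adjusted p = 0.0168), the only member called for such a difference. The call was lost without the replicate numbers in the fit (adjusted p = 0.238) and held in 5 of 15 repeats with arrays left out. The change was -1.86 in SU-DHL-4 cultures and -0.01 in those of DG-75. For DG-75 the AZD arrays (8.08, 8.55 and 8.12) lay below those of Ento+AZD (8.71, 9.0 and 8.77), while in SU-DHL-4 the AZD arrays (7.59, 6.66 and 7.49) lay above those of Ento+AZD (6.67, 5.28 and 6.32) except that AZD replicate 2 was below Ento+AZD replicate 1. The cause was not tested.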

How the results depend on the processing

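Same-numbered arrays of SU-DHL-4 deviated together in 12 of 18 pairs (r over 0.1, range -0.11 to 0.39) and those of DG-75 in 7 of 18 (range -0.35 to 0.34), with medians of 0.15 and 0.04 against -0.07 and -0.01 for different numbers. The replicate block stands in for the batch term of the methods and compares same-numbered arrays as if they were paired. The labels do not say whether these arrays share a batch, and the correlations do not settle it. With no replicate block, the combination gave 0 calls in SU-DHL-4 (ELOVL6 adjusted p = 0.0512), 0 against Ento in DG-75 (FADS2 adjusted p = 0.0543) and 0 for the difference between the lines under Ento+AZD (ELOVL6 adjusted p = 0.238). One call against Ento in SU-DHL-4 was gained in 1 fit of all 24 arrays, without rows under the median expression and with a trended, robust prior variance (1 in each), and 1 against AZD in the first and last of these. With array medians subtracted, 0 members were called against Ento in DG-75. Without the fold minimum, 3 members passed under Ento+AZD in DG-75, 3 against Ento there and 17 between the DMSO groups. In SU-DHL-4 under AZD the sterol median became 0.0641 by quantile normalization and 0.0546 with array medians subtracted, and the fatty acid median 0.0283, 0.0274 and, without low rows, -0.199. On the deposited values, 5 members did not overlap with DMSO under Ento in SU-DHL-4, against 13.4% of all rows. Under AZD there 8 did not (15.7% of all rows), and under Ento in DG-75 2 did not (6.65%). The first count became 9 by quantile normalization, and the other counts became 5 and 1 with medians subtracted. Under Ento+AZD in DG-75, 14 became 7 and 8 by these settings. No share of all rows was computed for these scalings.

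With arrays left out, the members called numbered 0 to 1 for the combination in each line, against Ento in DG-75 and for the difference between the lines, and 3 to 5 between the DMSO groups (5 without DG-75 DMSO replicate 2 or replicate number 2). FADS1, FADS2 and ACSL1 were called between the DMSO groups in 9 of 9 repeats. The fatty acid median under AZD in SU-DHL-4 ranged from -0.167 to 0.0256. Fewer arrays overlap less by construction, in any row, and no share of all rows was computed with arrays left out. The members without overlap then ranged from 5 to 18, 8 to 16 and 13 to 22 under Ento, AZD and Ento+AZD in SU-DHL-4. In DG-75 they ranged from 2 to 15, 8 to 24 and 14 to 24. SREBF1 under Ento in DG-75 ranged from -0.0387, without Ento replicate 1, to 0.19. Single-gene repeats covered 41 results, those of members at a limma adjusted p under 0.05 at any fold and the largest change of each arm against DMSO. Further pathway genes were not repeated. With arrays left out, 97 values rose above 0.05, 277 kept their side of it and 1 changed sign. Results that stayed above 0.05 count as kept. Under the other settings 8 rose above it, 208 kept their side and 11 came under it. Of these 11, FADS2 and PMVK under AZD and HMGCS1 under Ento+AZD in DG-75 gave 3 of 6 settings each. FDPS under Ento+AZD in SU-DHL-4 gave 2 of 6. Taking the mean of several rows of a symbol changed nothing, because each member has 1 row. Where not shown by construction, the cause was not tested.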
